A study of Mus musculus with 8 samples.

Results

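The genes described here were first catalogued as full-length cDNA clones from mouse testis libraries of the RIKEN institute, and many still carry the clone number as their name. They were taken by name from the table of small RNA in testis supernatant and lysate: features whose clone number starts like that of 1700029M20Rik, 4921515J06Rik, 4930519F09Rik, 4931407G18Rik, 4932415G12Rik or 4933404O12Rik, and whose locus overlapped none of the 181 piRNA clusters listed there. No measured level was used beyond being listed there, and every listed feature had at least 0.974 FPKM in supernatant or lysate. Clones below that level in both columns are therefore not covered. Of 5096 features, 227 had such a name, 3 of these overlapped a cluster and 224 remained. All 224 were matched in RefSeq's gene table (GRCm38.p6), 127 by current symbol and 97 by an older name. RefSeq annotates 179 as protein-coding, 35 as long non-coding RNA (lncRNA) and 10 as pseudogenes.

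The study sequenced small RNA of 19 to 33 nt through the purification of the chromatoid body from adult C57BL/6 mouse testis (animals at least 6 weeks old). The 8 libraries were a supernatant, a first and a second pellet, an immunoprecipitate (IP) with antibody to the acrosomal protease acrosin (ACR), 2 IPs with antibody to MVH (the germ cell RNA helicase DDX4), sorted round spermatids labelled hetMIWI, and the cross-linked whole lysate of tubule cells. MIWI is a mouse PIWI protein (PIWIL1). The genotype is described no further in the sources used here, nor are the number of animals and any pooling. The authors' tables give 1 column of FPKM (fragments scaled to feature length and library size) per fraction, beside a lysate column for supernatant, pellet and ACR IP. The pellet column is not tied to either pellet sample, and 1 column stands for both MVH IPs. Every difference below therefore compares 2 columns with no replicate check, and no test between groups was possible. The supernatant, pellet and ACR IP comparisons share the lysate library.

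Round spermatids are the haploid germ cells that follow meiosis, and the chromatoid body is their large cytoplasmic granule of RNA and protein. It gathers MVH, PIWI proteins, piRNAs and transcripts. PIWI proteins load piRNAs, most of which in the adult testis come from long single-strand precursors transcribed from clusters, while some come from messenger RNAs and lncRNAs elsewhere. Short RNA that maps to an ordinary gene can be a piRNA or another processed or degraded fragment, and the tables do not give the length or strand of the reads.

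All 6 round spermatid markers were listed in the supernatant table, with a summed level of 493 FPKM in supernatant and 439 FPKM in lysate. The sorted round spermatid table listed 1 of these 6 markers, Prm1, at 26.8 FPKM. Of 4 Sertoli cell markers, Clu was listed, at 1.58 FPKM in supernatant and 2.08 FPKM in lysate, and Sox9, Wt1 and Amh were not. Of 4 Leydig cell markers 3 were listed, with a summed level of 20.9 FPKM in supernatant and 16.7 FPKM in lysate. Of 4 blood markers 2 were listed. One of them, the microRNA gene Mir451, had 723233 FPKM in supernatant against 384606 FPKM in lysate. The other, Hba-a2, went the other way, with 0.440 FPKM in supernatant against 1.32 FPKM in lysate. All 5 spermatocyte markers were listed, with sums of 55.2 FPKM and 47.1 FPKM, and 2 of 3 spermatogonia markers. These 2 went opposite ways. Kit had 0.479 FPKM in supernatant against 2.20 FPKM in lysate, and Id4 1.02 FPKM against 0.297 FPKM. Fewer cells of a type and less RNA per cell cannot be told apart in these bulk libraries. The 3 clones that overlap clusters stood far above nearly all of the others: 1700020N18Rik had 966 FPKM in supernatant against 1374 FPKM in lysate, and 1700006A11Rik had 897 FPKM against 945 FPKM. The clone nearest to a cluster without overlapping it, 4930519G04Rik, lay 1093 bases away and had 1.75 FPKM in supernatant against 2.21 FPKM in lysate.

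Small RNA on the 224 genes was concentrated on a few of them. Their lysate values summed to 1894 FPKM, of which the lncRNA gene 1700029M20Rik held 60.3% and the 4 highest genes 73.5%. Only 7 genes reached 10 FPKM in lysate, 205 were below 5 FPKM and 135 were below 2 FPKM. The median was 1.72 FPKM in supernatant and 1.58 FPKM in lysate. Counting precision was low for most of them: the standard error (SE) that the authors' test statistic implies corresponds to a median of 22.2 read equivalents in supernatant and 12.7 in lysate. In lysate 83 genes had fewer than 10 read equivalents and 10 genes had at least 100. These figures cover counting error only.

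1700029M20Rik is an lncRNA gene on chromosome 4, 135182569 to 135186113 in the files' mm9 build, and no role is assigned to it here. It had 1387 FPKM in supernatant, against 1143 FPKM in lysate. Pellet held 493 FPKM, against 2732 FPKM for lysate in the same table. ACR IP held 27.4 FPKM, against 2379 FPKM for lysate in that table. MVH IP held 1468 FPKM and sorted round spermatids 3269 FPKM, the highest value of any of these genes in both columns. Thus only the supernatant was above its lysate column. One of its annotated transcripts held 1447 FPKM in MVH IP and the other 21.4 FPKM. None of its 3045 25-base words in GENCODE transcripts (M21) occurred in another gene. This lncRNA gene was the one member called higher in supernatant in the authors' deposited table (q-value listed as 0), where 0.942% of all features were called higher. Its log2 ratio was 0.28, with an implied counting SE of 0.011 from 47063 read equivalents in supernatant and 25877 in lysate.

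4933404O12Rik is a second lncRNA gene, on chromosome 5, 137395015 to 137412979 (mm9). It had 135 FPKM in supernatant against 149 FPKM in lysate, and 78.4 FPKM in pellet against 357 FPKM in lysate. In ACR IP 1.59 FPKM was listed, against 310 FPKM in lysate. The MVH IP column held 266 FPKM and round spermatids 74.6 FPKM. So it was lower than lysate in every fraction with a lysate column, by little in supernatant. Its log2 supernatant ratio was -0.14 with a counting SE of 0.032. The authors' deposited table gave a q-value of 0.000199 and no call in supernatant.

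The promoters of these 2 lncRNA genes are shown because they carried most of the small RNA of the set. Each run spans 250 bases before to 50 bases after the annotated start, from RefSeq (GRCm38.p6, plus strand), at chr4:135626405-135626704 and chr5:136918896-136919195. These motifs were searched on both strands: CAACGG and CAACTG, core letters bound by MYB proteins such as the meiotic factor A-MYB; TGACGTCA, the full site of CREB and CREM; and CCAAT, the CCAAT box. Capitals mark CCAAT boxes read on the other strand (ATTGG) in 1700029M20Rik, at positions -70 and -27 from the start, and CAACGG in 4933404O12Rik, at -94 and -9.
1700029M20Rik: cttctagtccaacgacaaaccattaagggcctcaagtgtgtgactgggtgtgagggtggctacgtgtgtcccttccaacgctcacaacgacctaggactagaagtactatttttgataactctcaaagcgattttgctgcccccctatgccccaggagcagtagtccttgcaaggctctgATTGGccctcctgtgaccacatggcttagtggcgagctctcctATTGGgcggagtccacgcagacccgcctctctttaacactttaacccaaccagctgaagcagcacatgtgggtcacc
4933404O12Rik: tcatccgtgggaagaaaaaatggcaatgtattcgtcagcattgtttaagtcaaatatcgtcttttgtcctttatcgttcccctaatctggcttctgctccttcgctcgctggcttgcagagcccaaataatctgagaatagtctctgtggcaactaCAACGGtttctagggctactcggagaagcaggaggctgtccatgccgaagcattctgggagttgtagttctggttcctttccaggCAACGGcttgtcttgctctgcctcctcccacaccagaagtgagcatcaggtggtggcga
CAACGG occurred in 8.37% of 215 promoters of the clone genes and in 5.13% of all 32544 promoters, CAACTG in 18.6% against 13.6%, TGACGTCA in 0.930% against 1.80%, and CCAAT in 34.4% against 37.4%. Promoters were found for 180 of the genes. A match of letters is a description of the sequence, not a binding site.

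The other genes among the 12 highest in lysate included 3 transcribed pseudogenes. 4933409K07Rik had 61.0 FPKM in supernatant against 62.1 FPKM in lysate, and 17.8 FPKM in pellet against 148 FPKM in lysate. It had 32.6 FPKM in MVH IP and 32.8 FPKM in round spermatids. The MVH IP table lists this name at 3 loci with 33.8, 33.2 and 32.6 FPKM, 2 of them on chromosome 4, so near-identical copies may share reads and the split among them is uncertain. 4930519F09Rik had 14.7 FPKM in supernatant against 17.4 FPKM in lysate, and 5.22 FPKM in pellet against 41.6 FPKM in lysate. 1700128F08Rik had 8.56 FPKM in supernatant against 9.53 FPKM in lysate, and 23.1 FPKM in MVH IP. In pellet these 3 pseudogenes were at least 2-fold lower than lysate, as were 86.5% of all features of that table.

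Cep83os (4932415G12Rik), an lncRNA gene named for lying opposite the centrosomal gene Cep83, had 38.2 FPKM in supernatant and 37.7 FPKM in lysate. It had 17.3 FPKM in pellet against 90.1 FPKM in lysate, 0 in ACR IP against 78.4 FPKM in lysate, 52.1 FPKM in MVH IP and 32.1 FPKM in round spermatids. Its ratios are less certain than these levels let appear. The implied counting SE of its supernatant ratio was 1.02 on the log2 scale, which corresponds to 3.29 lysate read equivalents, whereas its FPKM and its annotated transcript of 6566 bases would give 1567. It was the only one of 219 genes whose implied reads were under 10% of the median of 6.34 per FPKM and kilobase. The reason was not tested.

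Oip5os1 (1700020I14Rik), known as Cyrano, is an lncRNA with a conserved, extensively paired site for the microRNA miR-7, and is known in mouse for triggering the destruction of miR-7. The microRNA and that site are shown because short RNA from the microRNA genes and from the lncRNA's locus was measured in these libraries. The full-length lncRNA was not measured. Capitals mark the seed of the microRNA (bases 2 to 8) and the letters of the site complementary to it. The microRNA is from RefSeq (GRCm38.p6), and the site is from the GENCODE transcript at chr2:119602137-119602161 (GRCm38, plus strand), in exon 3 of 3.
mmu-miR-7a-5p: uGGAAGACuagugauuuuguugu
Oip5os1 site: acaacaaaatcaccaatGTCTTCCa
The first 13 bases of the site are complementary to bases 11 to 23 of the microRNA, 4 bases lie between, and the last 8 are complementary to its 5′ end. Oip5os1 had 6.47 FPKM in supernatant against 7.89 FPKM in lysate, and 3.39 FPKM in pellet against 18.9 FPKM in lysate. It was at 0 in ACR IP against 15.8 FPKM in lysate, at 19.7 FPKM in MVH IP and at 13.03 FPKM in round spermatids. The microRNA gene Mir7-1 had 3777 FPKM in supernatant against 2857 FPKM in lysate, and 563 FPKM in pellet against 6830 FPKM in lysate. Mir7-2 had 3527 FPKM against 3278 FPKM, and 736 FPKM against 7835 FPKM. Short RNA from both the lncRNA's locus and the microRNA genes was thus lower in pellet than in lysate, as most features were.

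The comparison of supernatant with lysate asked which small RNA stayed in solution when the sonicated cells were spun. Most of the genes had similar levels in both columns, and how many stood apart depends on how low values are treated. Of 219 genes at or above 1 FPKM in either column, 5 were higher by 2-fold or more and 1 was lower, on the log2(FPKM + 1) scale, which understates the change of low genes. With 0.1 FPKM added in place of 1 FPKM, 24 were higher and 9 lower. The share over all features was not computed at 0.1 FPKM, so these 2 counts cannot be set against the whole table. The criteria with 1 FPKM took in 7.16% of all features as higher and 5.42% as lower. The median log2 ratio was 0.06 for these genes and 0.02 for all features. Among other named genes outside clusters, 1.06% were at least 2-fold higher and 0.931% lower. Levels in the 2 columns had a Spearman correlation of 0.71 over the 224 genes, a description only, since the columns share gene lengths and low counts.

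The protein-coding gene 1700020L24Rik (chromosome 11, 83251195 to 83254734, mm9) was the exception. It had 2.53 FPKM in supernatant against 29.7 FPKM in lysate, that is 19.7 against 154 read equivalents. In pellet it had 0.888 FPKM against 71.0 FPKM in lysate, and in ACR IP 0 against 47.0 FPKM. It was present at 10.6 FPKM in MVH IP and at 34.4 FPKM in round spermatids, behind only 1700029M20Rik and 4933404O12Rik among these genes. The value in all 3 fractions was thus far below that of lysate. Its log2 supernatant ratio was -3.12, or -3.55 with no pseudocount and a counting SE of 0.345. It was the one gene of the set called lower in supernatant in the authors' deposited table (q-value listed as 0), where 1.59% of all features were called lower. Of its 25-base words, 42.3% also occur in transcripts of Mmp28, a matrix metalloprotease gene, so reads on it may belong to either. Its lysate value in the ACR IP table was one of 7 that fell over 10% short of the factor of 2.07 by which lysate values in that table exceed those in the supernatant table.

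The 5 genes at least 2-fold higher in supernatant on the log2(FPKM + 1) scale had below 5 FPKM in both columns. 1700096J18Rik had 1.57 FPKM in supernatant and was listed at 0 in lysate, and shares 53.7% of its 25-base words with another gene, Gm11696. Smim23 (1700008A04Rik), which encodes a small membrane protein, had 2.95 FPKM against 0.589 FPKM, from 17.3 against 2.31 read equivalents. 1700001J03Rik had 2.11 FPKM against 0.413 FPKM, with 33.3% of its 25-base words shared with other genes. 1700092M07Rik had 3.99 FPKM against 1.33 FPKM, and 1700108J01Rik 2.09 FPKM against 0.447 FPKM. The authors' deposited table gave these 5 q-values between 0.155 and 0.504. Cabs1 (4931407G18Rik), which encodes a calcium-binding protein of spermatids, was singled out after its values were seen: it had 7.13 FPKM in supernatant against 3.98 FPKM in lysate, with q = 0.0107 in the authors' deposited table. By that threshold of 0.05 the authors' deposited table holds 2 of the genes as higher, 1700029M20Rik and Cabs1, and 2 as lower, 1700020L24Rik and 4933404O12Rik, beside 3.77% and 4.83% of all features. Without the added 1 FPKM further genes passed 2-fold. 1700015G11Rik, singled out after its values were seen, had 9.77 FPKM in supernatant against 4.46 FPKM in lysate. 4931417E11Rik had 1.35 FPKM in supernatant against 0.270 FPKM in lysate, 1700012B09Rik 1.15 FPKM against 0.246 FPKM, and Fam24b (1700007K09Rik) 1.005 FPKM against 0.251 FPKM. At the low end, Ptges3l (1700113I22Rik) had 0.256 FPKM against 1.06 FPKM, 4930471G03Rik 0.680 FPKM against 2.29 FPKM, and Tmem247 (1700090G07Rik) 0.722 FPKM against 2.17 FPKM. Likewise 4933405L10Rik had 0.865 FPKM against 2.37 FPKM and 1700057G04Rik 0.486 FPKM against 1.26 FPKM. The counting SEs of the last 8 log2 ratios lay between 0.589 and 1.46. Each of these 8 genes passed the 1 FPKM filter through 1 column only, supernatant for the higher genes and lysate for the lower. The 5 genes named first, except 1700092M07Rik, likewise passed it through supernatant only. At such low levels this way of entry favours ratios far from 1.

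**Figure D1:**
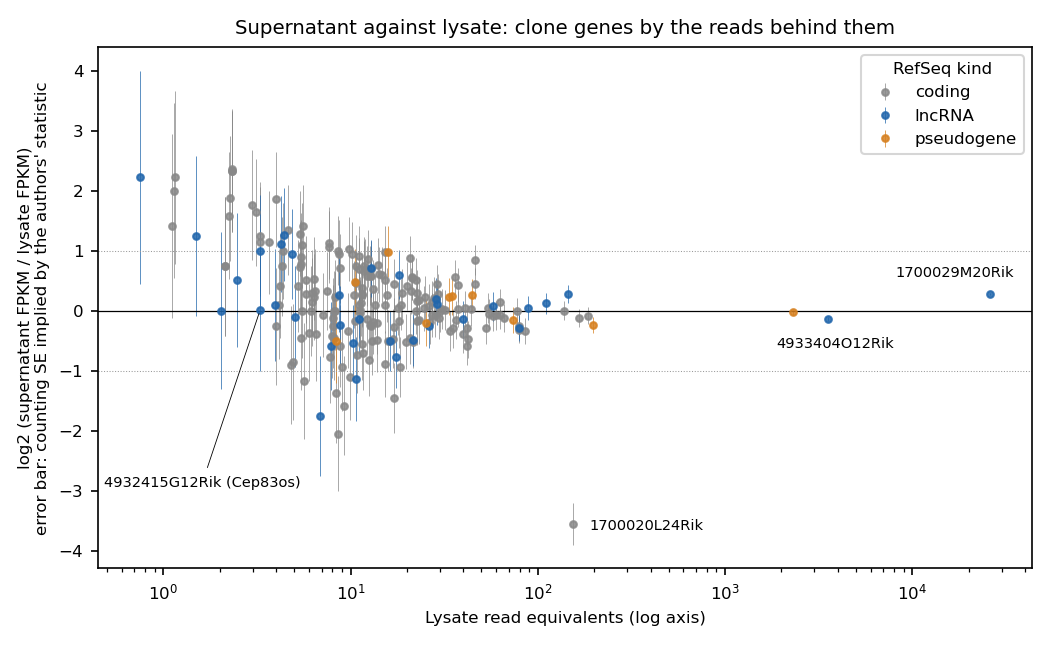
Log2 ratio of supernatant FPKM to lysate FPKM with no pseudocount, against lysate read equivalents (log axis). Each point is 1 clone gene, coloured by RefSeq kind, and bars are the counting SE implied by the authors' statistic. Ratios spread widely below 10 read equivalents. Among genes with over 100, only 1700020L24Rik, at -3.55, lies beyond a 2-fold difference (dotted lines).

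The pellet comparison asked which small RNA sediments with the chromatoid body material. The pellet table lists 107 of the 224 genes, and every feature listed there had at least 2.86 FPKM in pellet or lysate. Genes below that level in both columns are not covered. The upper quartile of the listed genes was 1.56 FPKM in pellet, so most entered through lysate only, which favours low ratios. Pellet values were lower for almost all of the 107 genes: by 2-fold or more, 0 genes were higher and 103 lower. Over all features listed in pellet, 8.75% were higher and 86.5% lower, so the columns as listed were offset. How far the listing level adds to that offset was not tested. The median log2 ratio was -2.17 for the genes and -2.20 for all features. After centring on the median of all features, 6 genes were at least 2-fold higher and 4 lower. The shares over all features were not computed after centring. The median level was 0.832 FPKM in pellet against 6.67 FPKM in lysate. In pellet 321 of all 3005 features were at 0, and so were 9 of the 107 genes. Among these 9 were Catsperz (1700019N12Rik), a subunit of the CatSper calcium channel of sperm, against 8.85 FPKM in lysate, and Syce3 (1700007E06Rik), a protein of the synaptonemal complex, against 6.92 FPKM in lysate. Among other named genes outside clusters 8.28% were higher and 86.6% lower. Lysate values in this table were 2.39 times those in the supernatant table, within 1% for all 107 genes.

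The other 4 genes were within 2-fold of lysate on the log2(FPKM + 1) scale. 4930503L19Rik had 3.95 FPKM in pellet against 1.501 FPKM in lysate, a log2 ratio of 0.98 on that scale and past 2-fold without the added 1 FPKM, and was the one gene higher by the q threshold of 0.05 (q = 0.0251 in the authors' deposited table), beside 5.59% of all features. It also had 7.13 FPKM in ACR IP against 1.31 FPKM in lysate, and 6.70 FPKM in MVH IP. Pradc1 (1700040I03Rik) had 6.91 FPKM in pellet against 4.22 FPKM in lysate, a log2 ratio of 0.60. Tsacc (1700021C14Rik), a co-chaperone of the testis-specific serine kinases of spermatids, had 17.0 FPKM against 11.2 FPKM, a log2 ratio of 0.56. Llcfc1 (1700034O15Rik), a sperm protein needed for fusion with the egg, had 5.77 FPKM against 6.42 FPKM. Next came Fam229a (1700125D06Rik), with 2.22 FPKM against 5.59 FPKM, and the lncRNA gene 1700069L16Rik, with 1.64 FPKM against 4.53 FPKM. The counting SEs of the first 4 ratios lay between 0.588 and 0.663 on the log2 scale. For Pradc1, Tsacc and Llcfc1 the q-values in the authors' deposited table were 0.304, 0.361 and 0.824.

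At the other end, 1700020L24Rik had the lowest ratio on the log2(FPKM + 1) scale, at -5.25, which favours genes high in lysate: 9 genes were at 0 in pellet, and 3 more had lower ratios of FPKM itself. Of these 3, Tex33 (1700061J05Rik) had 0.0464 FPKM in pellet against 6.09 FPKM in lysate, and 1700016H13Rik had 0.0374 FPKM against 4.64 FPKM. Their implied SEs of 9.39 and 18.8 cannot come from counting whole reads alone, and the 2 ratios cannot be ranked. The reason for such large SEs was not tested. The remaining one, Trim80 (4933422H20Rik), had 0.0678 FPKM in pellet against 7.06 FPKM in lysate with a counting SE of 2.26, and 4933409G03Rik 0.154 FPKM against 6.01 FPKM. Of the 107 genes, 0 were called higher in pellet and 7 lower in the authors' deposited table, beside 0.699% and 18.7% of all features. The 7 were 1700003E16Rik, 1700029M20Rik, 4930511M06Rik, 4930519F09Rik, 4933404O12Rik, 4933409K07Rik and Fam227a (4933432B09Rik). Of these, 1700003E16Rik had 2.51 FPKM in pellet against 28.1 FPKM in lysate, and Fam227a had 1.41 FPKM against 9.33 FPKM. 4930511M06Rik had 2.12 FPKM against 17.4 FPKM, and shares its locus with another clone, 1700011I03Rik. By the q threshold of 0.05 in the authors' deposited table, 84 genes were lower, beside 69.4% of all features.

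**Figure D2:**
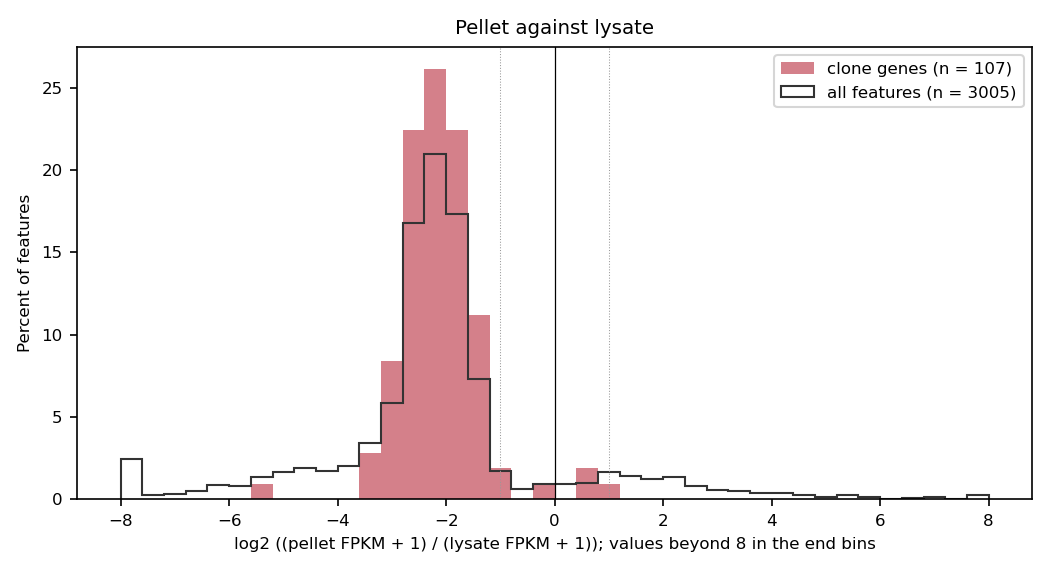
Distribution of log2 ((pellet FPKM + 1) / (lysate FPKM + 1)) as percent of features, for the 107 clone genes (filled) and all 3005 features of the table (outline). Both peak near -2, with medians of -2.17 and -2.20. The clone genes end at 0.98, while the outline has a tail of higher values.

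The ACR IP is the control precipitation. Its table lists 63 of the genes, 42 of them at 0 in ACR IP. At least 2-fold higher in ACR IP were 10 genes and 47 were lower, against 36.4% and 59.0% of all features. The median log2 ratio was -2.95 for the genes and -2.70 for all features, and centred on the latter 17 genes were higher and 11 lower. Centred shares over all features were not computed here either. An ACR IP read was worth about 10 lysate reads by the commonest ratio among low features. Of 20 genes above 0 in both columns, the median log2 ratio was 0.95, below the 1.54 of all 1245 features above 0 in both. Other named genes outside clusters were at least 2-fold higher in 47.8% of cases.

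Pradc1, which encodes a protein with a protease-associated domain, led the genes higher in ACR IP, with 55.7 FPKM against 2.79 FPKM in lysate. It also had 58.9 FPKM in MVH IP and 10.3 FPKM in round spermatids, but 0.819 FPKM in supernatant against 1.77 FPKM in lysate. Its locus overlaps Cct7, a chaperonin subunit gene, which had 2.71 FPKM in supernatant against 2.12 FPKM in lysate and 0.618 FPKM in pellet against 5.07 FPKM. Reads in the overlap cannot be assigned to one of these genes here. Ift43 (1700019E19Rik), a subunit of the intraflagellar transport complex, had 32.7 FPKM in ACR IP against 3.89 FPKM in lysate and was at 0 in MVH IP. Smco2 (1700023A16Rik) had 13.97 FPKM against 3.03 FPKM, with 6.52 FPKM in MVH IP. 1700011H14Rik had 12.9 FPKM against 2.06 FPKM and was at 0 in MVH IP. The lowest ratios among genes above 0 in both columns were those of 1700029M20Rik and 4933404O12Rik. Armt1 (1700052N19Rik) followed, with 1.19 FPKM against 15.9 FPKM. Sh3d21 (1700029G01Rik) had 1.22 FPKM against 5.86 FPKM, 1700029H14Rik 4.12 FPKM against 9.11 FPKM and Fam227a 0.498 FPKM against 5.58 FPKM. Among the higher ratios, 4930544D05Rik had 5.50 FPKM against 1.65 FPKM.

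The MVH IP table has no lysate column, so its values are levels. It lists 212 of the genes, 93 of them above 0 (43.9%), and 66.1% of other named genes outside clusters were above 0. After 1700029M20Rik and 4933404O12Rik the highest were Pradc1 at 58.9 FPKM, Cep83os at 52.1 FPKM, 4933409K07Rik at 32.6 FPKM and 4930465K10Rik at 28.03 FPKM. 4930465K10Rik is an lncRNA gene that had 10.002 FPKM in supernatant against 9.72 FPKM in lysate. Below these came 1700128F08Rik at 23.1 FPKM, Tsacc at 19.8 FPKM and Oip5os1 at 19.7 FPKM. Of 30 lncRNA genes listed 6 reached 10 FPKM in MVH IP, as did 7 of 174 protein-coding genes and 3 of 8 pseudogenes. The share at that level was 7.55% over all the clone genes, 12.4% over other named genes and 15.0% over other RIKEN clones outside clusters. In lysate 3 of 35 lncRNA genes, 2 of 179 protein-coding genes and 2 of 10 pseudogenes reached that level. Over the genes, levels in pellet and MVH IP had a Spearman correlation of 0.50 (100 genes) and levels in lysate and MVH IP of 0.25 (212 genes), as descriptions only.

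**Figure D3:**
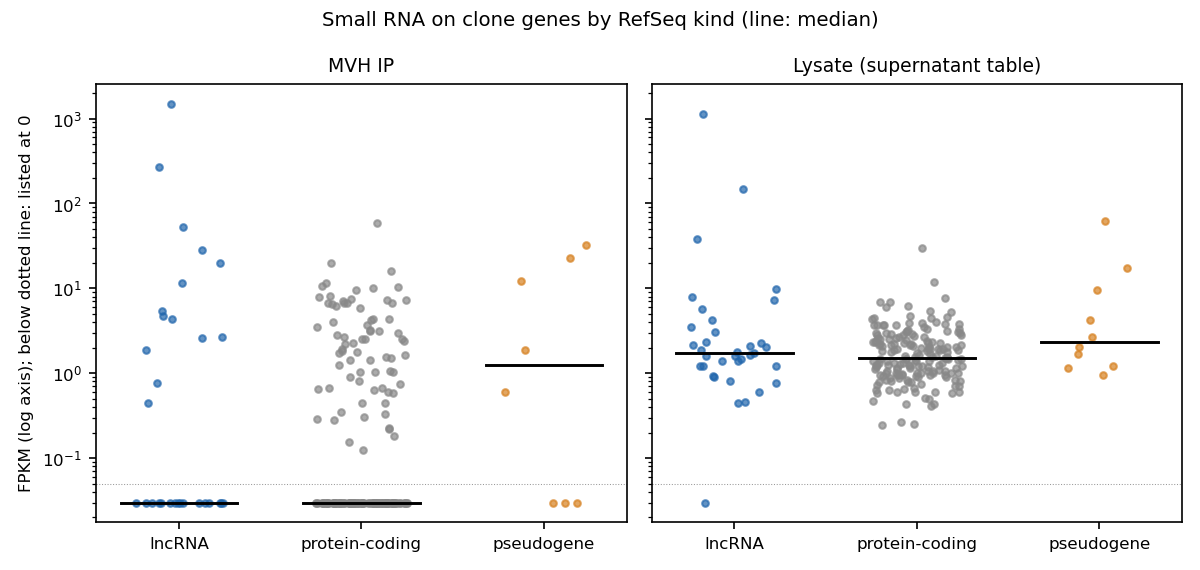
FPKM (log axis) of the clone genes in MVH IP and in the lysate column of the supernatant table, by RefSeq kind. Each point is 1 gene, the line is the median, and points below the dotted line are listed at 0. In MVH IP 6 of 30 lncRNA genes and 7 of 174 protein-coding genes lie at or above 10 FPKM.

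The round spermatid table is short, with 1014 features, and lists 14 of the genes, 13 above 0. Behind 1700029M20Rik, 4933404O12Rik and 1700020L24Rik came 4933409K07Rik, Cep83os, 4930465K10Rik at 18.1 FPKM, the protein-coding gene 1700010B08Rik at 15.6 FPKM and Oip5os1 at 13.03 FPKM. Of the 14 genes 6 are lncRNA genes, all of them at or above 10 FPKM, a level that 64.1% of other named genes and 68.8% of other RIKEN clones in that short table also reached. The 11 genes listed in all 5 tables were 7 of those just named, all but the pseudogene 4933409K07Rik, with Pradc1, the lncRNA gene 1700052K11Rik, Tsacc and 1700021F07Rik. In round spermatids these last 4 had 10.3, 10.1, 2.55 and 9.72 FPKM.

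Some of the clones have since been named for a known role. Henmt1 (4921515J06Rik), the methyltransferase that protects the 3′ end of piRNAs, had 3.11 FPKM in supernatant against 3.78 FPKM in lysate, and 2.14 FPKM in pellet against 9.03 FPKM in lysate. It was at 0 in ACR IP against 7.69 FPKM in lysate, and at 7.05 FPKM in MVH IP. In supernatant 4370 of all 4999 features were within 2-fold of lysate on the log2(FPKM + 1) scale. So were all 13 genes of the cilium and flagellum, with a median of 0.15. Without the added 1 FPKM that does not hold for Pifo (1700027A23Rik), with 1.71 FPKM in supernatant against 0.506 FPKM in lysate, from 15.0 against 2.97 read equivalents. Pifo passed the 1 FPKM filter through supernatant only. In pellet 86.5% of all features were at least 2-fold lower, as were all 5 of these genes listed there, among them Cfap206 (1700003M02Rik), a protein of the flagellar axoneme, with 0.155 FPKM against 5.55 FPKM. The 5 genes of the acrosome and fertilization were within 2-fold in supernatant on the same scale, with a median of 0.03. In the pellet table were 2 of those 5: Spaca9 (1700026L06Rik), with 0.999 FPKM against 10.6 FPKM, and Llcfc1. The 5 genes of the nucleus and chromatin were within 2-fold in supernatant too, with a median of -0.44, and the 4 listed in pellet were lower there, like most features. Among them Taf7l2 (4933416C03Rik), a relative of the transcription factor subunit TAF7, had 0.687 FPKM in pellet against 12.6 FPKM in lysate, and the sperm histone H2bl1 (1700024P04Rik) had 1.49 FPKM against 9.33 FPKM.

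Beside the clones, 43 named genes of late germ cells were listed in the supernatant table, and 0 of them were 2-fold higher or lower there. Over all features 7.16% were higher and 5.42% lower, and over other named genes outside clusters 1.06% and 0.931%. The median log2 ratio of the 43 was 0.25, and 34 of the 43 ratios were above 0, as were 2649 of 4999 over all features. In pellet all 36 listed were at least 2-fold lower, with a median of -2.45, and in ACR IP 2 of 32 were higher and 29 lower, beside 36.4% and 59.0% of all features. The protamine gene Prm1, which packs sperm DNA, had 181 FPKM in supernatant against 167 FPKM in lysate, and 26.6 FPKM in pellet against 398 FPKM in lysate. Clone genes and late germ cell genes thus had low ratios in pellet alike, as did most features of the table (86.5% at least 2-fold lower, 8.75% higher).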

How the data were processed

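Small RNA tables of 8 libraries in 7 groups were used. TopHat, Cuffdiff and mm9 are named in the submitters' processing notes. No source used here gives the annotation or the handling of multiply mapping reads. Values are FPKM as the authors deposited them, by header for round spermatids and by Cuffdiff's column names elsewhere. The authors also deposited, for supernatant and pellet, a test statistic, which is a score, with p-values, q-values and calls. One long RNA column tied to no sample here was not used. The members, gene lists and roles were chosen with earlier results of these data known.

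Within each table log2 ratios of (fraction FPKM + 1) to (lysate FPKM + 1) were computed where either column reached 1 FPKM, and features at least 2-fold apart were counted. With 1 column per group there is no replicate error. The counting SE of a ratio with no pseudocount is the log ratio divided by the authors' deposited statistic, and read equivalents follow from it as Poisson counts in the ratio of the read step of the table (0.667 in the supernatant table, at 107 features). The simulated data on which this calculation was run had Poisson counting error built in. That run therefore cannot show whether the authors' statistic holds counting error only. Total depth is not given by the tables.

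Genes named were the 12 highest in lysate, every gene the authors called, the 6 highest and 6 lowest ratios per comparison among genes above 0 in both columns, the 8 highest in MVH IP and in round spermatids, and those in all 5 tables. The list of 23 genes with a role, the motifs, and the further names given for counts of 5 or fewer were chosen after the values were seen. MVH IP transcripts of a gene were summed. Names, promoters and microRNA sequence are from RefSeq, and 25-base words and the miR-7 site from GENCODE M21 transcripts, both on GRCm38. Coordinates of genes are the files' mm9. Alternatives were another pseudocount, filter, centring, distance to clusters and overlap with other features. Python 3.11.15 was used with matplotlib 3.10.9, scipy 1.17.1, pandas 2.3.3 and numpy 2.4.6.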

Additional observations from a re-analysis of the deposited data

How the results depend on the processing

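Of 88 alternative values, 61 stayed close to those reported, 25 moved and 2 changed sign. With a pseudocount of 0.1 FPKM the genes at least 2-fold higher and lower in supernatant were 24 and 9, and 1 was higher in pellet. With 10 FPKM 0 were higher in supernatant, 17 were lower in pellet, and 2 were higher and 16 lower in ACR IP. At or above 5 FPKM (24 genes) 0 were higher in supernatant. Centred on all features, the pellet had 6 higher, 4 lower and a median of 0.024 (log2), and ACR IP 17 higher and 11 lower. Among genes above 0 in both columns 5 were lower in ACR IP, with a median of 0.95. Of all 1245 features above 0 in both, 452 were lower, with a median of 1.54. Requiring 10 lysate read equivalents, a setting chosen after seeing the data, left 0 genes higher in supernatant and 5 in ACR IP. By q-values below 0.05 (the authors' deposited table), 2 were higher and 2 lower in supernatant, and 1 higher and 84 lower in pellet. Beyond the smaller numbers of genes under a filter, the cause was not tested. Shares over all features were not computed with another pseudocount, with the 5 FPKM filter, after centring or with the read requirement. Counts under those settings describe the clone genes only. The 10 kb distance to clusters and the removal of genes that overlap another feature moved no count by over 1.5 times.

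No paired analysis was possible because each group has 1 column, and for the same reason leaving out 1 library was not run. In lysate 83 genes had fewer than 10 read equivalents, which limits their ratios. Counting SEs hold no variation between animals or preparations.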
